A study of Rattus norvegicus with 15 samples.

Results

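The RNA recovered in control immunoprecipitations with IgG was compared with the total (input) RNA of the same kind of cells, primary rat oligodendrocytes. The comparison took the 3 libraries titled as IgG and all 6 input libraries, 9 of the 15 in the series. They were chosen by their titles, and no measured value entered the choice. Oligodendrocyte precursors were shaken off mixed glial cultures from the forebrain cortex of Sprague-Dawley rats aged 0 to 2 days. They were then kept for 3 days in a defined maturation medium. The 3 control input libraries came from untreated cultures, and the 3 amyloid-β input libraries came from cultures that received oligomeric amyloid-β 1-42. For IgG the treatment label names a pool of amyloid-β and control, whereas amyloid-β alone is marked in the names of the deposited tables. The labels were followed here. No transgene or mutation is named for any group. Replicates are numbered 2, 3 and 4 in each group, and the series' design text calls them biological.

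Oligodendrocytes are the cells that wrap axons of the central nervous system in myelin. hnRNP A2 is an RNA-binding protein that takes part in carrying certain messenger RNAs, such as that of myelin basic protein, into their processes. An immunoprecipitation of such a protein always brings down some RNA that sticks to beads, tubes, antibody or abundant complexes. A control precipitation with IgG, which has no antibody to the protein of interest, samples that RNA. Its makeup therefore sets the level above which a signal in the hnRNP A2 precipitate is counted. The deposited tables give Ensembl gene identifiers alone, and 0 of these 30560 identifiers could be matched to a gene name in the RefSeq table used here (assembly GRCr8). Genes are therefore described by identifier, level and rank. The labelled cell type could not be set against its markers, and no gene sequence is shown.

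The IgG libraries held far fewer reads than the input libraries, and their own depths differed. IgG replicate 2 had 81463 counts assigned to genes, replicate 3 had 4096829 and replicate 4 had 1895870. The 6 inputs had between 14773400 and 25751522, so each IgG library lay below each input library. A count of 0 allows a level of up to 3 counts, which is 36.8 counts per 1000000 gene counts (CPM) in IgG replicate 2, 0.732 CPM in replicate 3 and 1.58 CPM in replicate 4. In the inputs that limit lay between 0.116 and 0.203 CPM. These limits cover counting error only, since reads without molecular identifiers are not independent molecules.

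At least 1 count was found for 8874 genes in IgG replicate 2, 16005 in replicate 3 and 15034 in replicate 4, and for 16234 to 17593 genes in the inputs. Most genes seen in IgG replicate 2 rested on very few reads. There 7101 genes had 1 to 9 counts, 1773 had at least 10 and 49 had at least 100. IgG replicates 3 and 4 had 11853 and 10246 genes with at least 10 counts, against 13118 to 13830 in the inputs. Counts of 10 or more in all 3 IgG libraries were reached by 1773 genes.

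What each IgG library could detect followed the level of the gene in input. Of 6810 genes at a mean of 10 to 100 CPM over the 6 inputs, 82.0% were detected in IgG replicate 2, and all but 1 in replicate 3 and all in replicate 4. Of 4345 genes at 1 to 10 CPM, 33.9% were detected in replicate 2, 99.1% in replicate 3 and 95.4% in replicate 4. Of the 1469 genes at 100 to 1000 CPM, 22 had 0 counts in replicate 2 and none had 0 in the other two. The 60 genes above 1000 CPM were seen in all 3 IgG libraries. For a gene under 36.8 CPM in input, absence from IgG replicate 2 alone therefore could not show a lower level. Of the 4131 genes above that limit, 207 had 0 counts there.

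**Figure D1:**
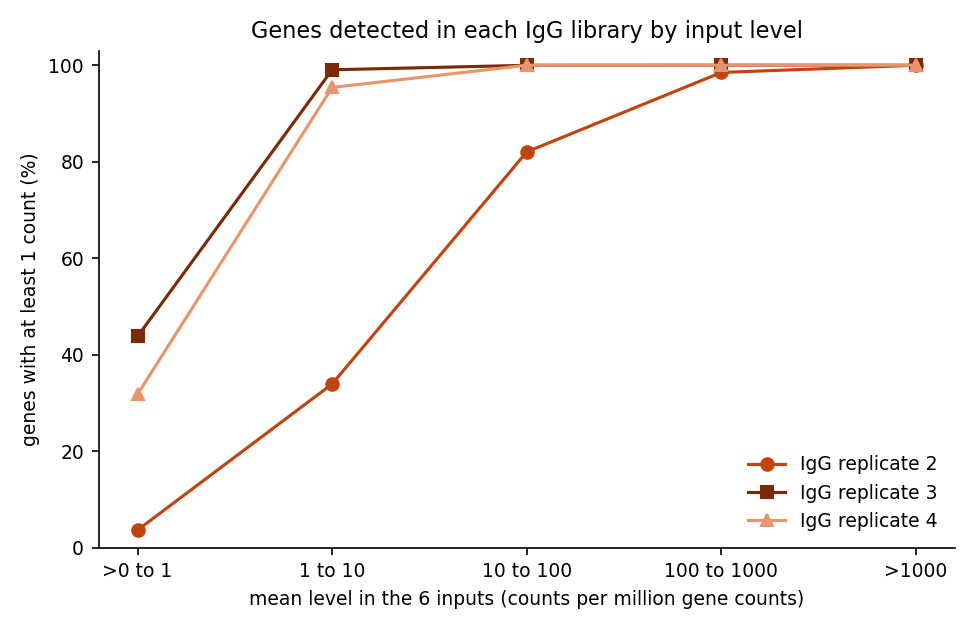
Share of genes with at least 1 count (percent, vertical axis) in each of the 3 IgG libraries, by the mean level of the gene in the 6 input libraries (CPM, horizontal axis). IgG replicate 2 reached 82.0% at 10 to 100 CPM, where replicates 3 and 4 detected nearly all genes.

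Read for read, the IgG libraries held more different genes than input RNA. At its own depth IgG replicate 2 had 8874 genes, while input libraries drawn down to 81463 counts would show between 8097 and 8804. IgG replicate 3 had 16005 genes, where inputs at the same depth would show 14953 to 15360. IgG replicate 4 had 15034, where inputs would show 14012 to 14320. At a common 80000 counts the IgG libraries would show 8833, 9198 and 9034 genes in replicates 2, 3 and 4, a mean of 9022 ± 183 (SD, n = 3). The inputs would show 8518 ± 301 (SD, n = 6), from 8049 to 8762. The groups did not overlap (2-sided exact permutation test, p = 0.0238, the smallest that 3 libraries against 6 allow, adjusted p = 0.0357 over 6 measures of whole libraries). This trait was not particular to IgG. The 6 libraries precipitated with the hnRNP A2 antibody would show 9295 to 9592 genes at 80000 counts, also above every input.

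The IgG counts were also less concentrated in the most abundant genes. The 10 most abundant genes of each library took 16.1%, 7.10% and 10.3% of gene counts in IgG replicates 2, 3 and 4. In the inputs they took from 19.9% to 41.6%, with a median of 29.8%. The group means were 11.2% ± 4.57 (SD, n = 3) and 30.8% ± 8.16 (SD, n = 6), again without overlap (exact permutation test, p = 0.0238, adjusted p = 0.0357). It took 527 to 673 genes to make up 50% of the counts in an IgG library and 73 to 438 in an input library. The hnRNP A2 libraries shared this trait. Their 10 most abundant genes took 6.05% to 8.59% of gene counts (n = 6).

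Reads that aligned once but outside any annotated feature were a larger share in IgG. They made up 22.1%, 18.5% and 19.9% of uniquely aligned records in IgG replicates 2, 3 and 4, a mean of 20.2% ± 1.82 (SD, n = 3). The inputs lay from 8.46% to 11.2%, with a mean of 9.94% ± 1.13 (SD, n = 6). Every IgG library was above every input library, and the exact permutation p was 0.0238 (adjusted p = 0.0357). This larger share was not particular to IgG. The hnRNP A2 libraries, at 19.6% to 25.98% (n = 6), were also above every input and overlapped the IgG values. Unaligned records were slightly fewer in IgG, at 44.6%, 46.4% and 45.3% of all records, against 47.8% to 48.8% in input, with an exact permutation p of 0.0238 (adjusted p = 0.0357). In this measure the hnRNP A2 libraries, at 47.4% to 48.4%, overlapped the inputs. Same-numbered inputs of the 2 treatments deviated together (r = 0.60 to 0.68 over 1771 genes, as a description), so these tests take 3 replicate numbers as 6 samples. With those inputs averaged, 3 against 3 allow no p below 0.1.

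Other measures did not separate the groups but set the IgG libraries apart from each other. Alignments to several positions made up 75.7% of aligned records in IgG replicate 2, 54.3% in replicate 4 and 25.5% in replicate 3. The inputs lay between, from 46.8% to 67.2% (exact permutation test, p = 0.690, adjusted p = 0.690). Records in several overlapping genes were 14.2%, 6.11% and 1.89% of uniquely aligned records in IgG replicates 2, 4 and 3, and 2.45% to 4.60% in input, with an exact permutation p of 0.214 (adjusted p = 0.257). In both measures the shallowest IgG library was highest and the deepest was lowest. Whether depth or the amount of RNA had a part in this was not tested.

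**Figure D2:**
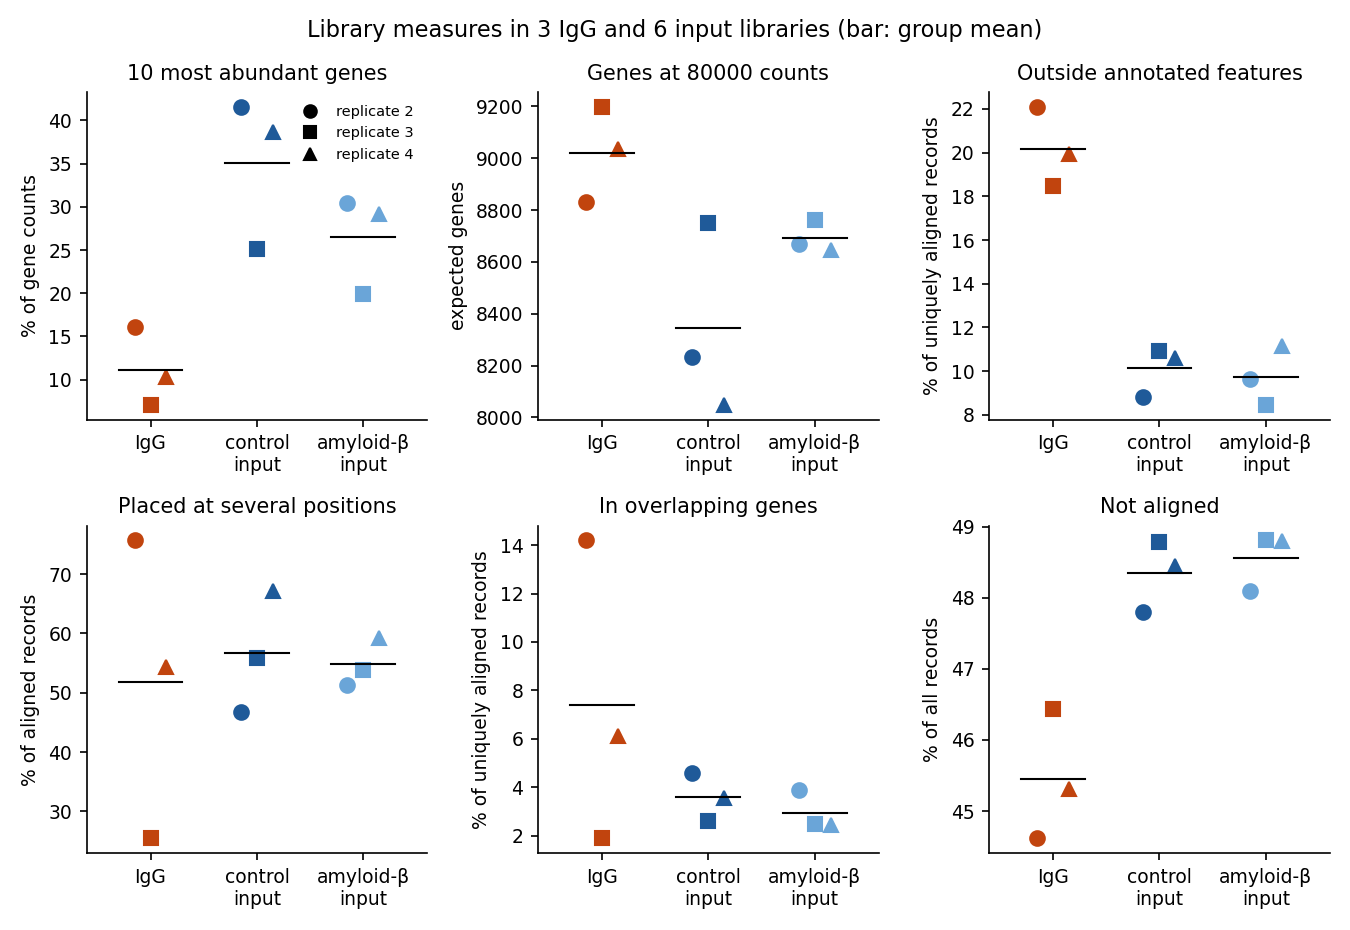
Measures of whole libraries (percent, or expected number of genes at 80000 counts, vertical axes) in the IgG, control input and amyloid-β input groups. Each point is 1 library, its shape gives the replicate number and the bar is the group mean. The vertical axes do not start at 0. IgG and input do not overlap in 4 of the 6 panels.

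The 3 most abundant RNAs of input took a smaller share in each IgG library than in any input library. The most abundant input gene took 10.5% ± 3.95 of gene counts in input (SD, n = 6; 5.74% to 17.0%) and 1.29%, 0.465% and 1.06% in IgG replicates 2, 3 and 4. The next input gene took 10.3% ± 3.71 (SD, n = 6; 6.42% to 16.9%), against 1.03%, 0.369% and 0.629% in IgG. The third took 4.41% ± 2.28 (SD, n = 6; 1.70% to 8.45%), against 0.728%, 0.461% and 0.900%. None of these 3 genes overlapped between the groups. Their log2 fold changes of IgG over input were -4.01 (SE 0.55), -4.46 (SE 0.54) and -3.15 (SE 0.55), with edgeR adjusted p-values of 0.000135, 5.65e-05 and 0.000727. As the genes were ranked by their input share, a high input level favours this direction. In the hnRNP A2 libraries these 3 genes took 0.558% to 0.916%, 0.675% to 1.06% and 0.100% to 0.225% (n = 6), also below every input.

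Among the 10 genes with the highest mean share in input, 6 were lower in IgG by the edgeR test (adjusted p under 0.05), 4 did not pass and 0 were higher. Over all genes tested 16.3% were lower and 14.3% higher. Of the 10 genes with the highest mean share in IgG, 3 were higher than input, 3 lower and 4 did not pass. The lists of 10 shared 7 genes, 70% of each. The lists of 100 shared 43 genes, 43% of each.

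Several genes at the top of the IgG list differed widely between the IgG libraries. The gene with the highest mean share took 3.88% in IgG replicate 2, 1.56% in replicate 4 and 0.314% in replicate 3. Its input share was 1.01% ± 0.298 (SD, n = 6), and it did not pass the test (log2 fold change 0.33, SE 0.53, edgeR adjusted p = 0.681). The genes at IgG ranks 3, 4 and 5 also had their highest share in replicate 2 and their lowest in replicate 3. The gene at rank 4 ran from 2.12% in replicate 2 through 0.845% in replicate 4 to 0.128% in replicate 3. The second gene went the other way, rising from 0.520% (replicate 2) through 2.05% (replicate 4) to 2.90% (replicate 3). Replicate 2 had the highest and replicate 3 the lowest share of alignments to several positions, and its part in these shares was not tested.

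Genes of middle and low rank took larger shares of the IgG counts than of input counts. Shares within a library add up to the whole. Smaller shares of the top genes therefore raise those of other ranks, and a larger share alone shows no shift towards a band. To keep the ranking apart from the values compared, genes were ranked in the 3 control inputs and their shares read in the amyloid-β inputs and in IgG. The 10 top-ranked genes took 25.7% ± 6.74 (SD, n = 3) of amyloid-β input counts and 8.86% ± 3.61 (SD, n = 3) of IgG counts. Ranks 11 to 100 took 12.6% ± 0.810 in amyloid-β input and 10.4% ± 0.620 in IgG (SD, n = 3 each). Ranks 101 to 1000 took 25.9% ± 1.72 in amyloid-β input and 31.2% ± 2.74 in IgG (SD, n = 3 each). Ranks 1001 to 5000 took 27.1% ± 3.51 and 36.2% ± 0.864, and ranks 5001 to 10000 took 7.89% ± 1.19 and 11.5% ± 0.480. The lowest ranks, below 10000, made up 0.902% ± 0.0436 of amyloid-β input and 1.78% ± 0.212 of IgG. In each of these bands the 3 IgG values lay on 1 side of the 3 amyloid-β input values. Inputs of the same number share their deviations across treatments, so the ranking is not wholly separate from those inputs, and 3 libraries against 3 allow no p below 0.1. The 6 hnRNP A2 libraries, from the precipitations with the specific antibody, had shares of 5.73% ± 0.901, 10.5% ± 1.20, 31.2% ± 0.760, 38.2% ± 1.31, 12.7% ± 0.825 and 1.66% ± 0.142 (SD, n = 6) in the same bands.

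**Figure D3:**
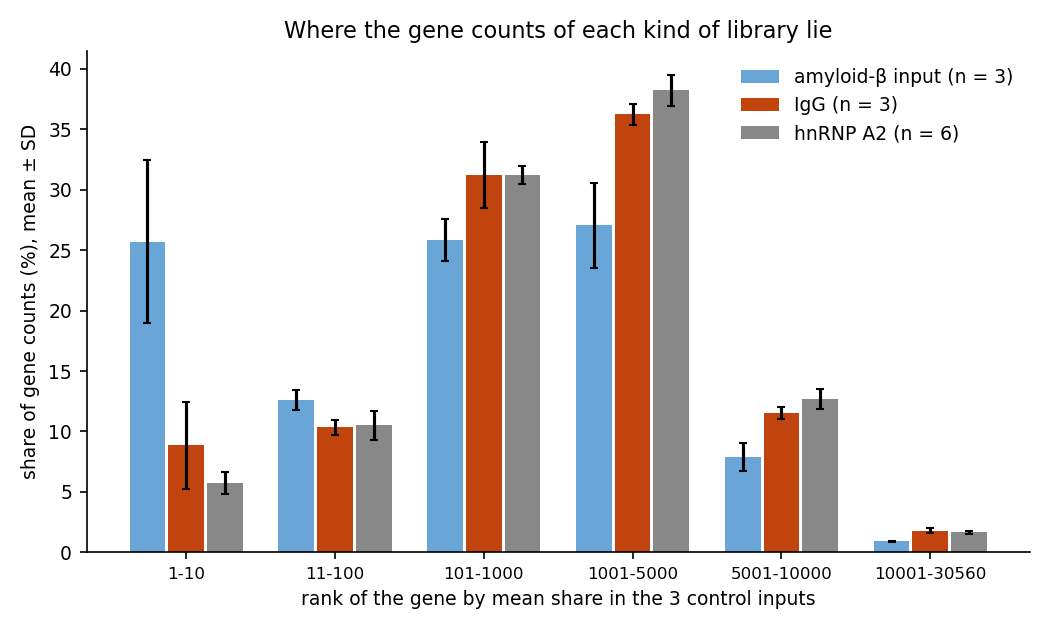
Share of gene counts (percent, vertical axis, mean with SD as error bar) in bands of genes ranked by their mean share in the 3 control inputs (horizontal axis), for 3 amyloid-β input, 3 IgG and 6 hnRNP A2 libraries. The 10 top-ranked genes hold 25.7% of amyloid-β input counts and 8.86% of IgG counts, and the order turns in the bands from rank 101 on.

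The test of each gene asks which RNAs took a larger or smaller share in the background of the procedure than in total RNA. Of 14205 genes tested with edgeR's quasi-likelihood test (Benjamini-Hochberg adjusted p under 0.05), 2025 were higher in IgG and 2316 lower, 30.6% of genes in all. Called genes mostly had fitted changes of more than 2-fold, 1751 of the higher and 2161 of the lower. In an edgeR test for a change beyond 2-fold, 543 higher and 630 lower genes passed. The median log2 fold change was 1.504 among the higher genes and -1.583 among the lower, beside -0.11 over all genes tested. Past 8-fold lay 156 higher and 147 lower genes. Levels from here on are CPM after scaling with TMM factors, which weigh libraries by the bulk of their genes. Higher genes had a median of 17.4 CPM in input and 45.8 CPM in IgG. Lower genes had a median of 46.3 CPM in input and 14.7 CPM in IgG. A lower value is a smaller share of the library, and less RNA in the tube cannot be told apart from it here.

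The direction of the split depended on the scaling. With library sizes alone, 3385 genes were higher and 1213 lower, and the median of all genes shifted up by 0.44 on the log2 scale. All of the 2025 higher genes and 1213 of the 2316 lower genes kept their call in that setting. The upward shift favours higher calls, so their being kept adds no support. The 2 deeper IgG libraries carried most of the evidence. Without IgG replicate 4 the count fell to 2193 genes, and without replicate 3 to 2974, but without replicate 2 it was 4473. Of the 4341 genes called with all libraries, 4014 were called in the same direction without replicate 2, 2733 without replicate 3 and 2166 without replicate 4.

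How often a gene was called followed its level. Among 2191 genes averaging under 2 CPM, 8.53% were higher and 2.37% lower. The directions cannot be set against each other in that class. A lower call was hard to reach there, as 3 counts stand for 25.7, 0.603 and 1.38 CPM in IgG replicates 2, 3 and 4. The expression filter can also admit a gene through its IgG values alone. Among 1298 genes above 128 CPM, 19.5% were higher and 30.7% lower. The median standard error of a log2 fold change was 0.87 in the first class and 0.33 in the second. For 1800 genes, 12.7% of all tested, both 95% confidence limits of the fold were under 2-fold. Most genes without a call had limits that included a change of that size. There were 74 tested genes with 0 counts in all 3 IgG libraries, of which 38 were called lower. Against 3 counts over the summed IgG libraries, the strongest of these was at least 13.4-fold lower. Fitted folds of such genes depend on the added prior count. With them set at that bound, the median of the lower genes was -1.57.

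**Figure D4:**
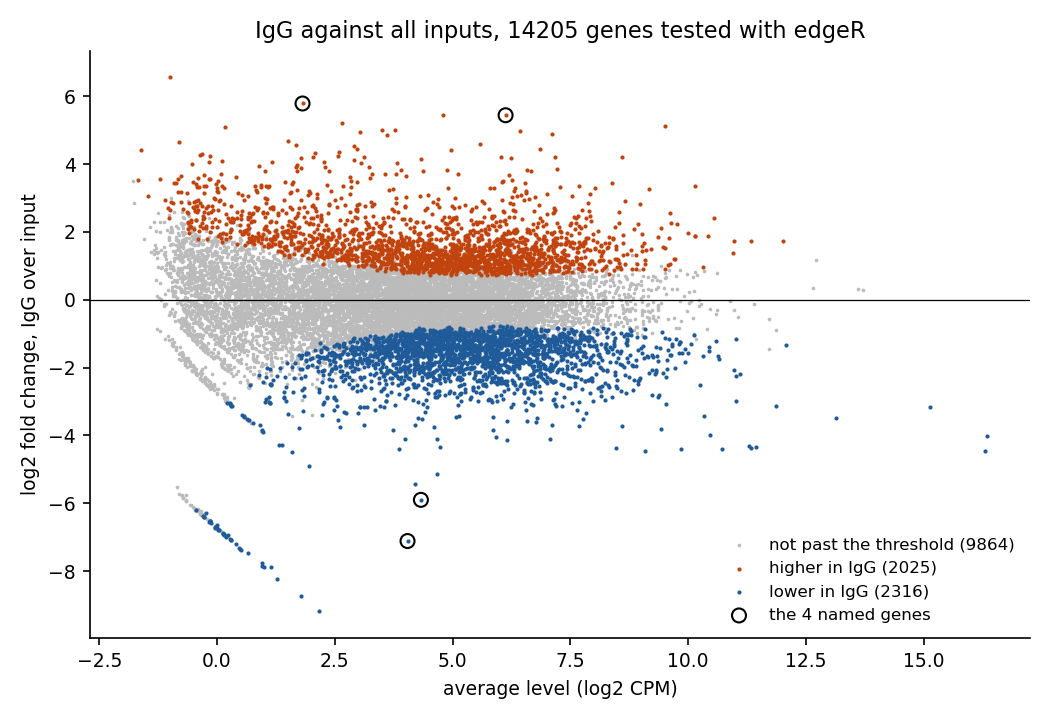
Log2 fold change of IgG over input (vertical axis) against average level (log2 CPM, horizontal axis) for 14205 genes tested with edgeR. Each point is a gene, with 2025 higher and 2316 lower genes in colour and the 4 named genes circled. The lowest slanted line of points holds genes with 0 counts in all 3 IgG libraries, whose fitted fold is no measured size.

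Groups did not overlap at many genes. In 1533 genes (10.8% of those tested) each IgG value was above each input value, and in 2914 (20.5%) each was below. A gene with 0 counts in IgG replicate 2 cannot enter the first class, and 319 of the 2025 higher genes had 0 there. Such a 0 lies below any input with a count, which favours the second class. Of the 14205 genes tested, 5449 (38.4%) had 0 counts in IgG replicate 2, so the sizes of the 2 classes cannot be set against each other. Among the lower genes 790 had 0 counts in that library, 45 in replicate 3 and 74 in replicate 4. Higher genes had a median of 4 counts in replicate 2, 233 in replicate 3 and 108 in replicate 4. Their support in the shallowest library was thus a few reads each.

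The strongest gain among non-overlapping genes of at least 10 CPM in the higher group was that of ENSRNOG00000051561. It had 17.1, 9.44 and 26.2 CPM in IgG replicates 2, 3 and 4, from 2, 47 and 57 counts. In the inputs it lay between 0.127 and 0.536 CPM with a median of 0.297, from 3 to 9 counts each. As the choice of non-overlapping genes requires, each IgG library was above each input library. The gain was 55.2-fold (log2 fold change 5.79, SE 0.52, edgeR adjusted p = 7.38e-06). As replicate 2 rests on 2 counts, the value of that library is the least certain of the 3.

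ENSRNOG00000067981 came next and was well counted in all IgG libraries. It had 556, 87.2 and 187 CPM in IgG replicates 2, 3 and 4, from 65, 434 and 406 counts. The inputs lay between 2.15 and 10.9 CPM, with a median of 6.04. The gain was 43.4-fold (log2 fold change 5.44, SE 0.57, edgeR adjusted p = 1.88e-05), although the IgG values themselves spread over a wide range, with 277 ± 247 CPM (SD, n = 3). In the hnRNP A2 libraries, scaled over all 15 libraries, this gene had 29.9 ± 23.9 CPM (SD, n = 6), from 6.57 to 59.3. On that scale ENSRNOG00000051561 had 1.58 ± 0.837 CPM (SD, n = 6).

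The strongest loss by the matching rule, with at least 10 counts in each input, was that of ENSRNOG00000060012. It had 0, 0 and 1 counts in IgG replicates 2, 3 and 4. The inputs lay between 5.87 and 53.1 CPM, with a median of 17.3, from 139 to 594 counts each. Summed over libraries, input was 137-fold above IgG, with a 95% exact counting interval of 24.5 to 5407 that covers counting error only. The edgeR adjusted p was 0.000450 (log2 fold change -7.11, SE 1.16). In IgG replicate 2 a 0 allows up to 25.7 CPM after scaling, above the input median, so the 0 there is weak evidence. Without that library the log2 fold change was -7.20 (edgeR adjusted p = 0.00147).

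ENSRNOG00000067889 was the next. It had 0, 1 and 2 counts in IgG replicates 2, 3 and 4, against 9.29 to 55.5 CPM in the inputs, with a median of 24.0. The limit of 25.7 CPM in IgG replicate 2 was above that median too. Summed over libraries, input was 57.8-fold above IgG, with a counting interval of 19.8 to 280 (edgeR adjusted p = 0.000189, log2 fold change -5.90, SE 0.85). Both lower genes were low in the hnRNP A2 libraries too, at 0.349 ± 0.176 and 0.0416 ± 0.0339 CPM (SD, n = 6), scaled over all 15.

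**Figure D5:**
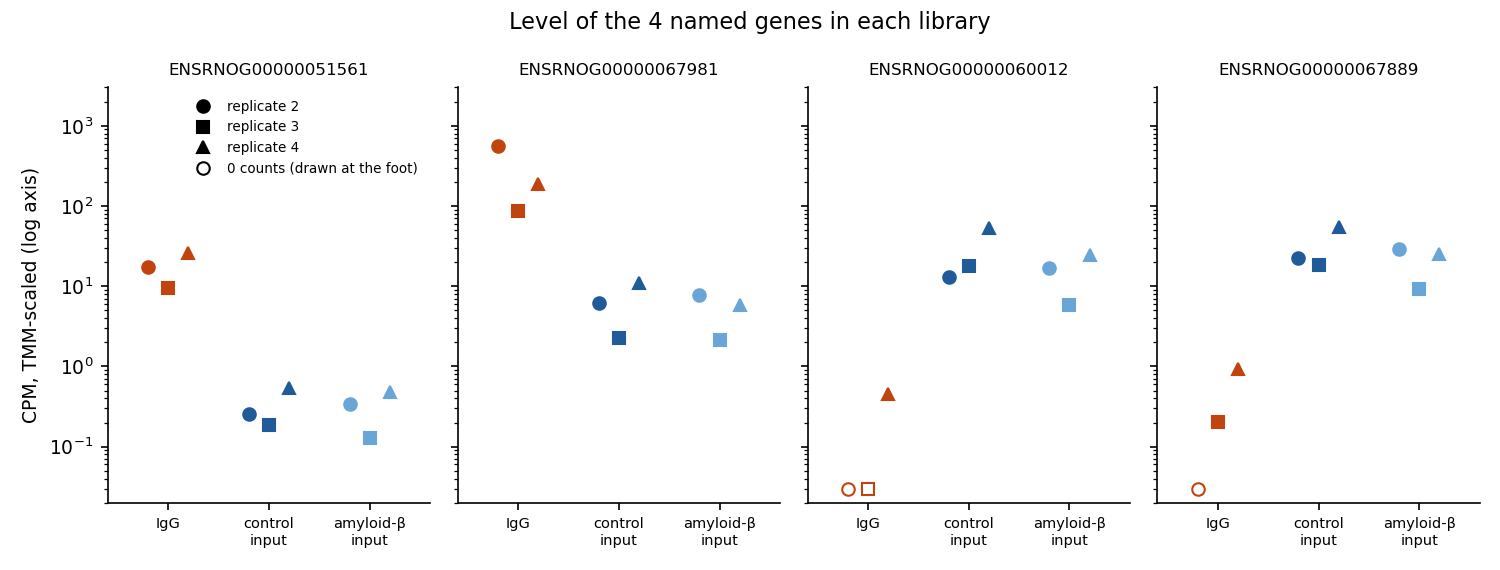
Level of the 4 named genes (CPM after TMM scaling, log axis) in each IgG, control input and amyloid-β input library, with the replicate number as point shape and open points at the foot for 0 counts. The higher pair lies above every input in all 3 IgG libraries, as the rule that chose it requires. The lower pair rests on 1 and 3 IgG counts in total.

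By the same rule the 10 strongest gains had log2 fold changes of 4.95 to 5.79 and IgG levels of 12.1 to 2110 CPM. The rule admits a gain only with counts in IgG replicate 2, and these ran from 2 to 287. The 10 strongest losses ran from -4.38 to -7.11 and included the second most abundant input gene. Of these 10, 5 had 0 counts in IgG replicate 2. All hnRNP A2 libraries lay below all inputs at 9 of the 10 losses and above all inputs at 3 of the 10 gains, scaled over all 15 libraries. All 10 gains and all 10 losses kept their call without each single IgG library and with library sizes alone, although they had been chosen with all libraries included. Scaling by library sizes alone favours the gains.

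Each input group was also used alone, since the pool that the IgG label names covers both treatments. Both comparisons share the IgG libraries and 1 fit. Against control input 1466 genes were higher (10.3% of those tested) and 1735 lower (12.2%), together 22.5%. Against amyloid-β input 1660 were higher (11.7%) and 2234 lower (15.7%), together 27.4%. With library sizes alone the splits were 2931 higher and 799 lower against control, and 2517 and 1267 against amyloid-β. ENSRNOG00000051561 had log2 fold changes of 5.80 (SE 0.68) against control and 5.77 (SE 0.66) against amyloid-β input, with edgeR adjusted p-values of 0.000147 and 0.000109. ENSRNOG00000067981 had 5.30 (SE 0.75) and 5.58 (SE 0.75), ENSRNOG00000060012 had -7.53 (SE 1.18) and -6.70 (SE 1.21), and ENSRNOG00000067889 had -6.20 (SE 0.87) and -5.60 (SE 0.88). All 4 passed against both inputs. Without IgG replicate 4 the counts were 1356 against control and 1988 against amyloid-β input, and without replicate 3 they were 2269 and 2565.

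The IgG libraries were then set against each other, by reading each one at genes called without it. The inputs stay the same in such a reading, so it is a repeat in the IgG library alone. Of 929 genes higher without IgG replicate 4, 925 were also above the input mean in replicate 4, and of 1264 lower genes 1261 were below it. Over all genes tested in that fit, 44.5% were above and 55.5% below. Without replicate 3, 1185 of 1205 higher and 1734 of 1769 lower genes were on the same side in replicate 3, where 45.6% of all genes were above. In replicate 2, genes were read only where the input level would give at least 10 counts. There 188 of 241 higher genes were above the input mean, beside 23.5% of all such genes, and 749 of 760 lower genes were below, beside 76.5%. The median log2 ratio of those higher genes was 0.69 in replicate 2 and 1.28 in the fit without it.

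Likeness between libraries was described by rank correlation over genes, which are not independent replicates. Over 3506 genes with at least 100 counts in the 14 libraries other than IgG replicate 2, IgG replicates 3 and 4 had a Spearman rho of 0.87 with each other. IgG replicate 3 had a rho of 0.80 to 0.90 with the hnRNP A2 libraries and 0.42 to 0.67 with the inputs. IgG replicate 4 had 0.71 to 0.76 and 0.47 to 0.59. Both IgG libraries were thus closer to every hnRNP A2 library than to any input library in these ranks. The typical gene differed 1.26-fold between IgG replicates 3 and 4 and 1.55-fold to 1.93-fold between them and the inputs, after removing the median shift. Between pairs of input libraries it differed 1.07-fold to 1.61-fold, which overlaps the range between IgG and input. Between IgG and hnRNP A2 libraries it differed 1.26-fold to 1.45-fold. Over 1771 genes with at least 10 counts in all 15 libraries, IgG replicate 2 had a rho of 0.61 to 0.73 with the other IgG libraries, 0.52 to 0.65 with hnRNP A2 and 0.42 to 0.48 with input. That set favours genes high in IgG replicate 2.

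Genes called in the test of IgG against input had these levels in the hnRNP A2 libraries. Genes higher in IgG had medians of 19.9 and 19.1 CPM in control and amyloid-β input, 50.6 CPM in IgG, and 44.3 and 42.6 CPM in the control and amyloid-β hnRNP A2 libraries. Genes lower in IgG had medians of 48.6 and 53.4 CPM in the inputs, 16.0 CPM in IgG, and 22.1 and 23.0 CPM with hnRNP A2. Over all genes tested the medians were 17.9, 18.8, 15.04, 17.1 and 17.2 CPM in that order, scaled over all 15 libraries. IgG and input values chose these genes, so the hnRNP A2 levels are the ones the choice did not use. With hnRNP A2, the median of both classes lay between those of input and IgG. As the classes were chosen for IgG and input values that lie apart, the choice itself favours such a place between them.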

How the data were processed

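Per the labels' protocols, libraries were made from 4 to 10 ng of total RNA with a stranded low-input kit and sequenced as read pairs. The authors deposited raw read counts per Ensembl gene identifier. STAR 2.7.1, HTSeq, R 4.2.2 and DESeq2 are listed in the submitters' processing notes with no role. Build, annotation and strand setting: not given in the sources used here. Genes that overlap, lie antisense or have near copies have uncertain counts. Each table had 30560 identifiers and 5 summary rows, which held 76.0% to 85.5% of records in input and 68.2% to 91.4% in IgG and stayed out of library sizes. A record placed at several positions may be counted more than once there.

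The 9 libraries were fitted together with edgeR 4.0.16 in R 4.3.3 (3 group means, TMM, default expression filter, quasi-likelihood F test, Benjamini-Hochberg adjustment at 0.05). The contrast was IgG minus the mean of both input groups. A standard error (SE) is the log2 fold change divided by the square root of F. The code of the fit was run on simulated counts with the same spread for all genes and few, balanced changes. That setting is simpler than these data and says nothing of the calls made here. Library measures had 2-sided exact permutation tests, adjusted over 6 measures, of which 2 (overlapping genes and unaligned records) were not planned. Alternatives used DESeq2 1.42.0, limma 3.58.1 with voom, other scalings and filters, a replicate block, all 15 libraries, summed inputs and each library left out.

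Replicate libraries differed by more than sampling noise in every pair (chi-square per degree of freedom at least 4.05). Deviations of same-numbered IgG and input libraries from their group means correlated at -0.28 to 0.29 over 1771 genes. All 3 pairs with control input were above 0.1, so the numbers were read as pairing there, but not with amyloid-β input or with all inputs. The main counts of called genes, also those against control input, come from the fit without a replicate block. That fit takes the 6 inputs as independent samples, although same-numbered inputs of the 2 treatments deviated together. Named genes are the largest non-overlapping changes past the threshold with at least 10 CPM in the higher group and at least 10 counts in IgG replicates 3 and 4 or in each input. The rule asked for 10 per direction with a gene symbol; as no identifier had one, 2 per direction are named. The gene lists and cell type markers drawn up could not be used for the same reason. Members and lists were chosen with earlier results of these data known.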

Additional observations from a re-analysis of the deposited data

How the results depend on the processing

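All alternatives kept the sign of every gene called against all inputs that they tested, and the 4 named genes kept direction and call in each setting that tested them, with adjusted p-values up to 0.0137. The number of genes called against all inputs (4341) moved by more than 1.5 times in 3 settings. These were at least 10 counts required in each library (764, as 1771 genes were tested), a minimum log2 fold change of 1 (1173) and no IgG replicate 4 (2193). Without IgG replicate 4 the counts against control input (3201) and amyloid-β input (3894) moved by more than that too, to 1356 and 1988. Without replicate 3 the count against amyloid-β input did so as well (2565). Leaving out each of the 9 libraries gave 2193 to 4806 genes against all inputs. Leaving out each IgG library gave 1356 to 3290 against control input and 1988 to 4089 against amyloid-β input, where no input library was left out. Other settings gave 3979 with inputs of the same number summed, 4166 with DESeq2, 5279 with voom and 5709 with all 15 libraries. TMM with singleton pairing, chosen after seeing the data, gave 4385. A replicate block gave 5311 genes against all inputs, 4329 against control and 5032 against amyloid-β input, so the pairing moved none by 1.5 times. In 4 of 6 cases an IgG library correlated best with the input of its own number. Averaging inputs of the same number leaves 3 against 3 libraries and adjusted p-values of 0.15. The differences of IgG from input were then -19.6 percentage points for the 10 most abundant genes, 503 genes at 80000 counts, 10.2 points outside annotated features and -3.002 points unaligned. With each library left out they ranged from -22.1 to -17.5 points, 410 to 598 genes, 9.27 to 11.1 points and -3.49 to -2.58 points. None passed in these smaller designs, where the lowest adjusted p was 0.0536. Each exact permutation p was the smallest its design allows, 0.0714 without an IgG library and 0.0357 without an input library. That none passed therefore reflects the number of libraries and says nothing of the differences. The difference in alignments to several positions ranged from -15.8 to 9.29 points and turned to 9.29 without IgG replicate 3, and that of overlapping genes from 0.737 to 6.89 points. Depth limits IgG replicate 2 most.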
